A study of Mus musculus with 20 samples.

Results

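The genes described here encode the protein subunits of the mitochondrial ribosome in mouse muscle. They were taken by symbol, as all genes named Mrpl or Mrps followed by a number that had a probe set with a single symbol. Of 19938 genes tested, 77 met the rule: 48 Mrpl genes, named for the large subunit, and 29 Mrps genes, named for the small subunit. The mitochondrial ribosome is built from rRNAs transcribed inside the organelle and from proteins encoded in the nucleus, made in the cytosol and imported. It translates the few mRNAs of the mitochondrial genome, which code for core subunits of the respiratory chain and of ATP synthase. Its supply of proteins is therefore tied to the oxidative capacity of a muscle fibre, and PGC-1alpha, a transcriptional coactivator, is known to drive nuclear genes for mitochondrial proteins.

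Gene expression had been measured on Affymetrix whole-transcript arrays in the gastrocnemius, a calf muscle dominated by fast fibres, from adult males of the C57BL/6 strain. PGC-1alpha-mTg mice overexpress PGC-1alpha in muscle through a transgene, and WT are their wild-type controls. NCoR1-MKO mice lack the nuclear receptor corepressor NCoR1 in muscle, and CON are their controls, of a genotype that the labels leave unstated. Each group had 5 arrays. The promoters that drive the transgene and the Cre, and whether samples were pooled, are likewise unstated. The labels do not say that each array came from a separate mouse, and the p-values then reflect no more than the scatter among these samples, some of which may be technical. Values were log2 RMA values, where a difference of 1 is a doubling. Array medians were 5.84 to 5.91 in the 10 arrays of PGC-1alpha-mTg and WT and 6.03 to 6.08 in the 10 arrays of NCoR1-MKO and CON, so levels were not compared across these cohorts. Each change below is a log2 difference ± SE between means of 5 arrays, and a gene is said to have risen or fallen only at a limma p under 0.05 after Benjamini-Hochberg adjustment over all 19938 genes.

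The transgene was checked first. The brightest Ppargc1a probe set read 11.36 to 11.53 on the transgenic arrays and 9.38 to 9.75 on the WT arrays, a rise of 1.83 ± 0.07 (adjusted p = 9.88e-15). A dimmer Ppargc1a probe set went the other way and averaged 7.08 in PGC-1alpha-mTg and 8.08 in WT (adjusted p = 1.73e-07 over probe sets). Ncor1 was not analysed here, so the knockout was not checked against its gene. Markers of skeletal muscle fibres, such as Acta1, Ckm and Myh4, were among the brightest signals of every group. Array 5 of PGC-1alpha-mTg stood apart, with the lowest mean correlation to the other arrays of its group (r = 0.9901), and it was least like arrays 2 and 3 (r = 0.9872 at the lowest within the group, against 0.9939 or more in the other groups). It also held the highest transgenic value for 39 of the 77 Mrp genes. The main counts are therefore also given without array 5, and without arrays 2 and 3. In whole muscle, fewer cells of a type and less RNA per cell cannot be told apart.

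PGC-1alpha-mTg muscle carried more mRNA for most proteins of the mitochondrial ribosome than WT muscle. Of the 77 genes, 62 rose (80.5%) and 0 fell, where 11.9% of all genes tested were called higher and 16.1% lower. The median change over the 77 was 0.35, or 1.28-fold, beside 0.02 over all genes, and the middle 50% of genes lay between 0.16 and 0.48. The rises were small one by one: 12 genes rose 1.5-fold or more and 0 reached 2-fold. For 56 genes every transgenic array lay above every WT array, which held for 8.72% of all genes tested, and for 0 genes the reverse, which held for 11.2% of all genes. Without array 5 of PGC-1alpha-mTg 57 genes rose and 1 fell, Mrpl33, and the median change was 0.33. Without arrays 2 and 3, an alternative chosen after seeing the data, 58 genes rose.

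**Figure D1:**
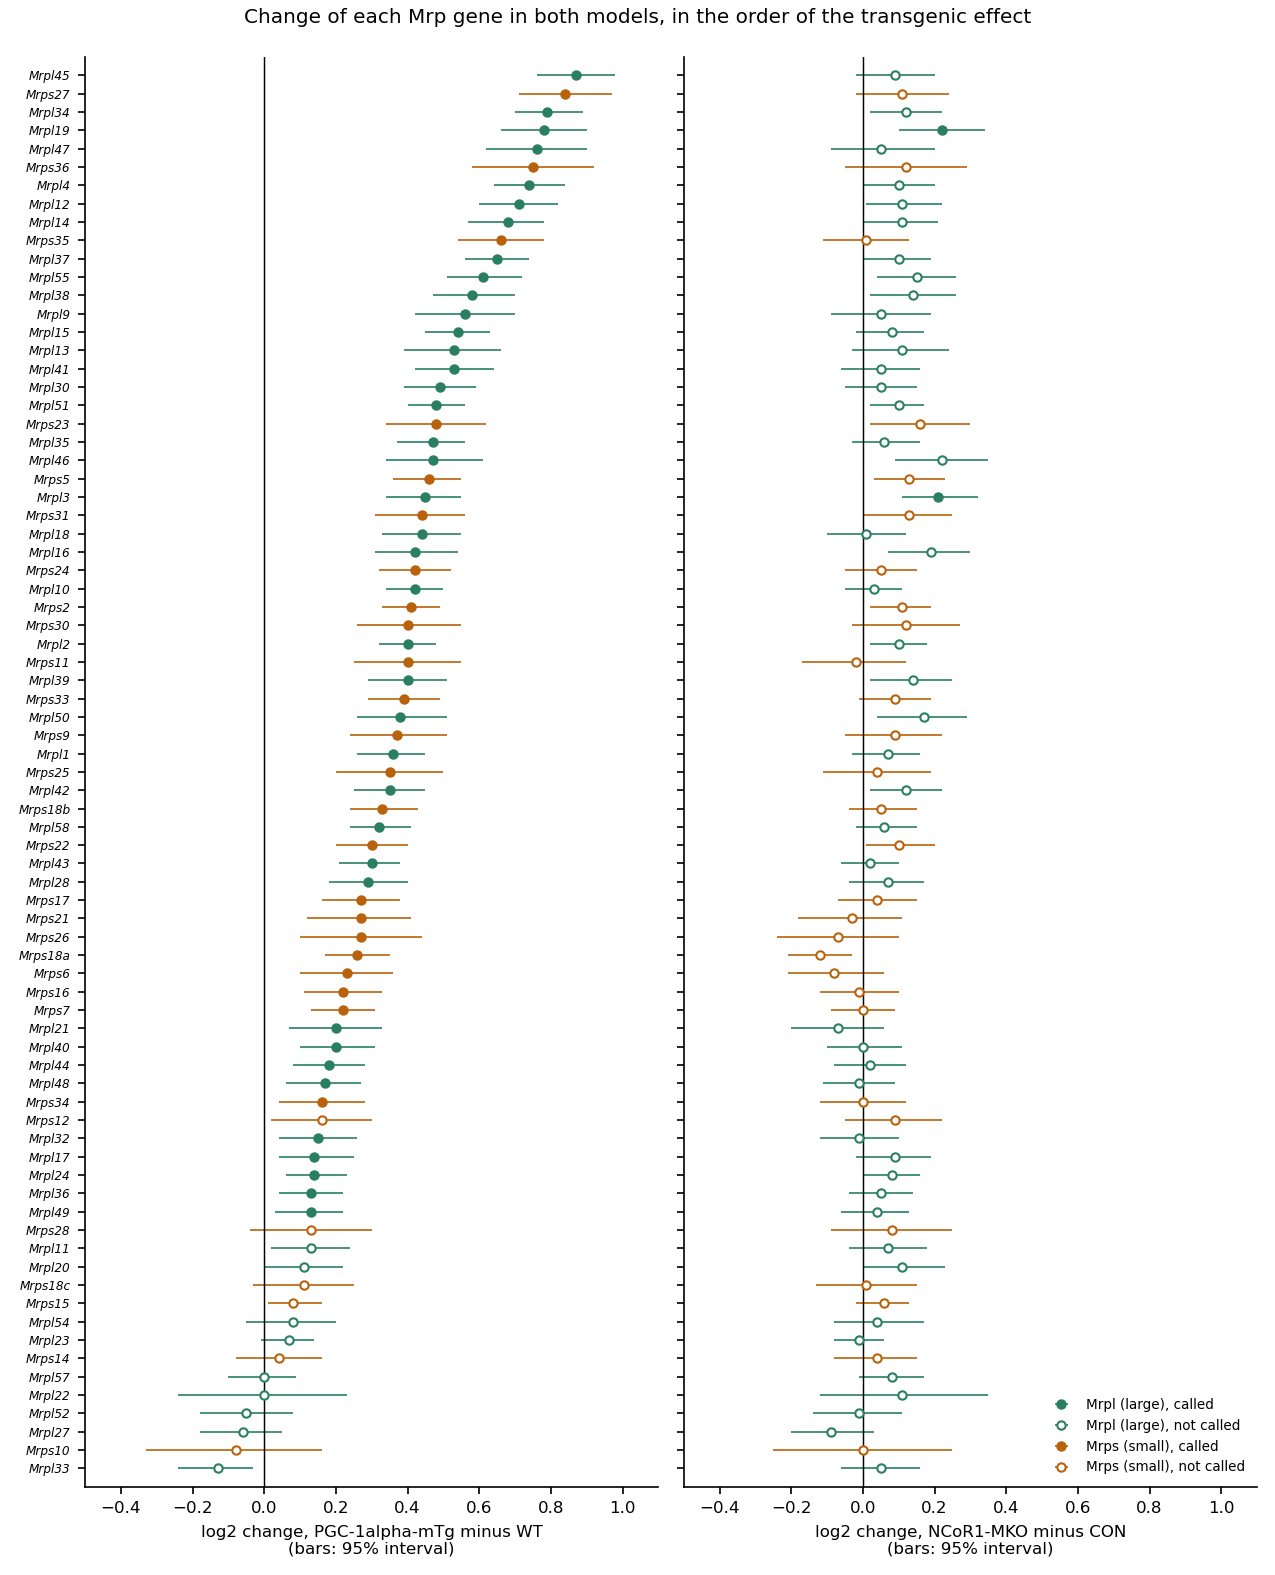
Log2 change of each of the 77 Mrp genes in PGC-1alpha-mTg minus WT (left) and NCoR1-MKO minus CON (right), in the order of the transgenic effect, with 95% intervals. Filled points passed the test. On the left 62 points are filled, all above 0, and on the right 2 are.

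The largest rise was that of Mrpl45, a protein specific to mitochondrial ribosomes that sits beside the peptide exit and ties the ribosome to the inner membrane. Mrpl45 (probe set 10380751) read 9.22, 9.30, 9.19, 9.23 and 9.21 in PGC-1alpha-mTg, against 8.41, 8.42, 8.28, 8.32 and 8.34 in WT. The groups were far apart, and the change was 0.87 ± 0.05 (adjusted p = 2.16e-11, 1.83-fold). Next came Mrps27, a small-subunit protein of the pentatricopeptide repeat family, whose relatives bind RNA. Mrps27 read 8.75, 8.92, 9.01, 8.81 and 8.76 in PGC-1alpha-mTg, against 7.94, 8.09, 7.98, 7.99 and 8.02 in WT, again without overlap, a change of 0.84 ± 0.06 (adjusted p = 5.37e-10). Mrpl34, a homologue of a bacterial core protein, had values of 10.26, 10.38, 10.22, 10.31 and 10.38 in PGC-1alpha-mTg and of 9.62, 9.60, 9.49, 9.38 and 9.49 in WT. Its change was 0.79 ± 0.05 (adjusted p = 1.39e-11).

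Mrpl19 and Mrpl14, homologues of bacterial proteins at the interface between the subunits, rose by 0.78 ± 0.06 and 0.68 ± 0.05. Mrpl19 read 8.91, 9.0, 8.99, 9.02 and 9.0 in PGC-1alpha-mTg, against 8.28, 8.15, 8.24, 8.11 and 8.23 in WT. Mrpl14 read 9.56, 9.59, 9.65, 9.65 and 9.74 in PGC-1alpha-mTg, against 9.12, 9.04, 8.87, 8.82 and 8.94 in WT. Both genes kept the groups apart. Mrps35, a small-subunit protein, rose by 0.66 ± 0.06, with 8.20 to 8.44 on the transgenic arrays and 7.57 to 7.72 on the WT arrays. Mrps36 rose by 0.75 ± 0.08. Its product is now known as a subunit of the oxoglutarate dehydrogenase complex rather than of the ribosome, and without it 61 of 76 genes rose.

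**Figure D2:**
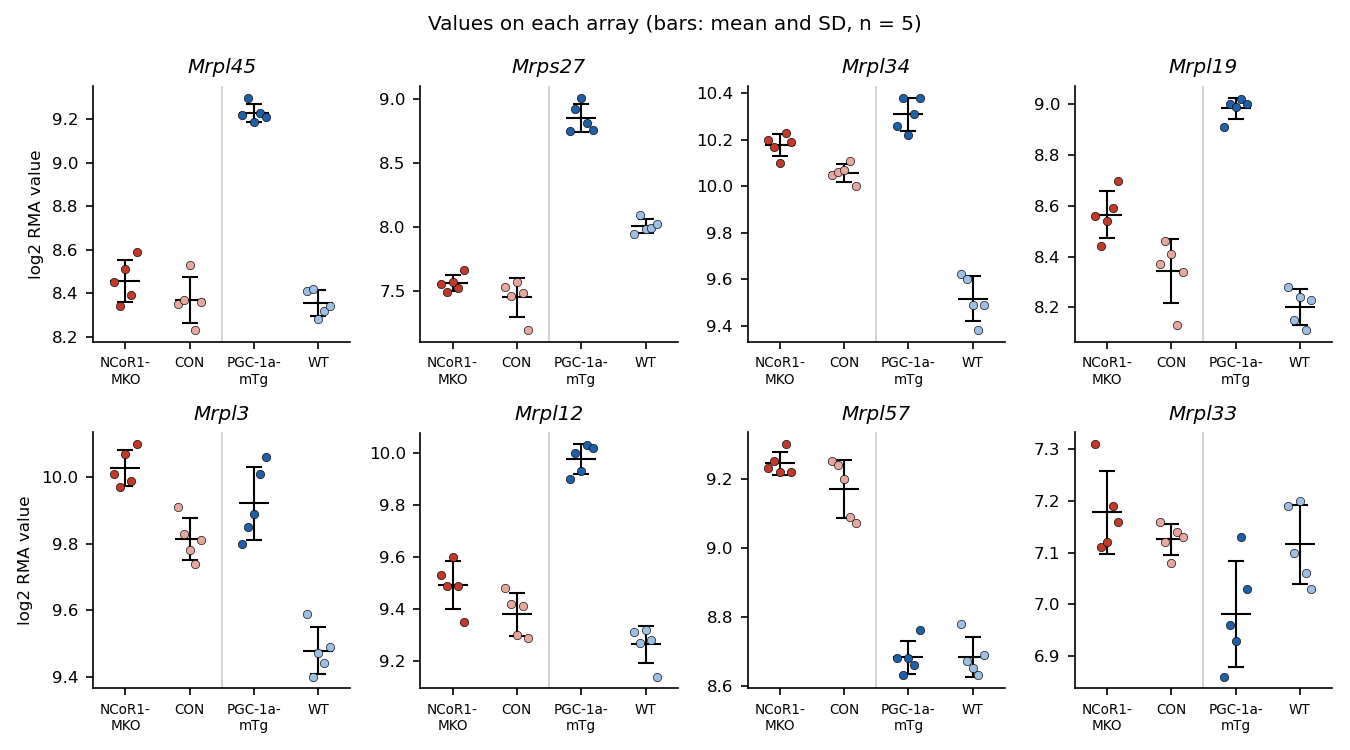
Log2 RMA values of 8 Mrp genes on each array, with the mean and SD of 5 arrays, in NCoR1-MKO, CON, PGC-1alpha-mTg and WT. For Mrpl45 the transgenic arrays lie at 9.19 to 9.30 and the WT arrays at 8.28 to 8.42, whereas for Mrpl57 and Mrpl33 the transgenic and WT arrays overlap.

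Genes for proteins of the same region of the ribosome did not change alike. Around the tunnel through which the new peptide leaves, the homologues of bacterial L4 and L29, Mrpl4 and Mrpl47, rose by 0.74 ± 0.05 (adjusted p = 6.82e-11) and 0.76 ± 0.07 (adjusted p = 8.85e-09). On its dimmer probe set Mrpl47 rose by only 0.24 ± 0.05. Mrpl24 rose by only 0.14 ± 0.04 (adjusted p = 0.00888). Mrpl23 changed by 0.07 ± 0.03 (adjusted p = 0.177) and Mrpl22 by -0.00 ± 0.11 (adjusted p = 0.981), neither past the test, although both line the same tunnel. The 95% interval of Mrpl22 was wide, from -0.24 to 0.23, since its transgenic arrays ranged from 6.57 to 7.17 around the WT arrays at 6.71 to 6.98. The interval of Mrpl23 was narrow, from -0.01 to 0.14, and lay wholly below that of Mrpl4, which ran from 0.64 to 0.84. The differences between members were not themselves tested, and these region groups were chosen after their values were seen.

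The stalk that recruits translation factors gave a similar picture. Mrpl12, the mobile stalk protein, which in human cells also binds the mitochondrial RNA polymerase, read 9.90 to 10.03 in PGC-1alpha-mTg, against 9.14 to 9.32 in WT. It rose by 0.71 ± 0.05 (adjusted p = 3.27e-10). Mrpl10, on which it docks, rose by 0.42 ± 0.04 (adjusted p = 1.31e-08). Mrpl11, at the base of the stalk, changed by 0.13 ± 0.05 (adjusted p = 0.0816), with 8.85 to 8.98 on the transgenic arrays and 8.72 to 8.89 on the WT arrays. Among the 3 relatives of bacterial S18, Mrps18b rose by 0.33 ± 0.05 and Mrps18a by 0.26 ± 0.04, and Mrps18c changed by 0.11 ± 0.07 (adjusted p = 0.274). Mrps12, the homologue of a bacterial protein of the decoding site, changed by 0.16 ± 0.07 (adjusted p = 0.0781).

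In all 15 of the 77 genes did not pass the test in PGC-1alpha-mTg. They were Mrpl11, Mrpl20, Mrpl22, Mrpl23, Mrpl27, Mrpl33, Mrpl52, Mrpl54, Mrpl57, Mrps10, Mrps12, Mrps14, Mrps15, Mrps18c and Mrps28, with changes from -0.13 to 0.16. For 12 of the 15 the upper end of the 95% interval lay under 0.25, so the data allow only a small rise. Mrpl57 was the most even of those near 0, with 8.68, 8.63, 8.68, 8.66 and 8.76 in PGC-1alpha-mTg, against 8.78, 8.67, 8.65, 8.63 and 8.69 in WT. The lowest change was that of Mrpl33, which read 6.86, 6.96, 6.93, 7.13 and 7.03 in PGC-1alpha-mTg, against 7.19, 7.10, 7.20, 7.06 and 7.03 in WT. The groups overlapped, and the change was -0.13 ± 0.05 (adjusted p = 0.0543). Mrpl33 did pass as lower after median centring of the arrays, and without the dimmest 40% of genes. It also passed when 1 array was left out, either array 4 or 5 of PGC-1alpha-mTg, array 5 of WT or array 1 of NCoR1-MKO.

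The large and the small subunit responded to a like extent in counts. Of 48 Mrpl genes 39 rose (81.2%), with a median change of 0.39, and of 29 Mrps genes 23 rose (79.3%), with a median of 0.30. The Mrpl genes were spread more widely, with quartiles at 0.14 and 0.53, against 0.22 and 0.41 for the Mrps genes. On single arrays the mean of the Mrpl genes was 9.03 to 9.14 in PGC-1alpha-mTg and 8.66 to 8.76 in WT, and that of the Mrps genes 8.64 to 8.75 in PGC-1alpha-mTg and 8.29 to 8.40 in WT. Neither pair of ranges overlapped. Structures of the mammalian ribosome place Mrps18a and Mrps30 in the large subunit. With these 2 genes moved and Mrps36 left out, 41 of 50 large-subunit genes rose, with a median of 0.39, and 20 of 26 small-subunit genes, with a median of 0.29. No test of one subunit against the other was made, since genes are not replicates.

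The symbols also separate older from newer parts of the ribosome, since numbers up to Mrpl36 and Mrps21 follow bacterial ribosomal proteins, although a few proteins with higher numbers, such as Mrpl47, also have bacterial homologues. Of 33 genes with higher numbers 29 rose (87.9%), with a median change of 0.39, and of 44 with a bacterial number 33 rose (75%), with a median of 0.28. Among the Mrps genes with higher numbers 12 of 13 rose, with a median of 0.40. Of those with a bacterial number 11 of 16 rose, with a median of 0.25. This split follows symbols alone. Its higher numbers include Mrps36, now placed outside the ribosome, and Mrps30. Its bacterial numbers include Mrps18a, which like Mrps30 is placed in the large subunit. Among the Mrpl genes the medians were 0.37 for 20 genes with higher numbers and 0.41 for 28 with a bacterial number, the opposite order. This grouping was chosen with earlier results known and was not tested.

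Where a gene had 2 probe sets with a single symbol, they made the same call in the transgenic comparison. This was so for all 8 such genes, Mrpl23, Mrpl27, Mrpl41, Mrpl47, Mrpl51, Mrps5, Mrps33 and Mrps36. The size agreed less well for Mrpl47, which rose by 0.76 ± 0.07 on the brighter probe set and by 0.24 ± 0.05 on the dimmer one, and with the mean of both by 0.50. For Mrpl41 the rises were 0.53 ± 0.05 and 0.29 ± 0.06. Probe sets may also detect near-identical copies such as processed pseudogenes, and their share of the signal was not tested.

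Upstream sequence was set beside these changes, since the promoters of genes for mitochondrial proteins are known to bind the factors NRF1, GABP (an ETS factor) and YY1 and the estrogen-related receptors, partners of PGC-1alpha. RefSeq windows of build GRCm38.p6, from 250 bases before a gene's start to 50 after it, were given for 68 of the 77 genes, as 74 windows. The letters searched on both strands were GCGCATGC for NRF1, CCGGAAGT for ETS factors, AANATGGCG for YY1 and TNAAGGTCA for estrogen-related receptors. At least 1 of the first 3 occurred in 28 of 74 windows (37.8%), where 8.37% of all 32851 windows held one. NRF1 letters were in 10.8% of the windows, against 2.71% of all, ETS letters in 16.2%, against 3.89%, and YY1 letters in 14.9%, against 2.38%. The receptor letters were in 0 of 74 windows and in 1.28% of all, so none of these windows carries that exact spelling.

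The windows of 4 genes are printed 5′ to 3′ on the strand of the gene, with matches in capitals. Mrpl45 (chr11:97315466-97315765, plus strand) and Mrps27 (chr13:99344536-99344835, plus strand) rose the most. Mrps11 (chr7:78782881-78783180, plus strand) shares its upstream region with Mrpl46, and Mrpl33 (chr5:31613701-31614000, plus strand) had the lowest change.
Mrpl45: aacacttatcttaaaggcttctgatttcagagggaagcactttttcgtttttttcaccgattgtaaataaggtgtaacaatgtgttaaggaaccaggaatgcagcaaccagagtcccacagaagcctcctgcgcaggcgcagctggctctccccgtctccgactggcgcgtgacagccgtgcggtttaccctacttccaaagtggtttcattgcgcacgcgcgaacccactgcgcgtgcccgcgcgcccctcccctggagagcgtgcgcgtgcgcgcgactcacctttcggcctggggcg
Mrps27: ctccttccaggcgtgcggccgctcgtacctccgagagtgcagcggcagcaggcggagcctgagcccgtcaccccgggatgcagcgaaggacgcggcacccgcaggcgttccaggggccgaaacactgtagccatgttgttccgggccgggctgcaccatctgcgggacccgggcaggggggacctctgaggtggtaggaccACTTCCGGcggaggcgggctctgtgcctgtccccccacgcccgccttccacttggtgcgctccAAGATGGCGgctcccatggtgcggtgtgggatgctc
Mrps11: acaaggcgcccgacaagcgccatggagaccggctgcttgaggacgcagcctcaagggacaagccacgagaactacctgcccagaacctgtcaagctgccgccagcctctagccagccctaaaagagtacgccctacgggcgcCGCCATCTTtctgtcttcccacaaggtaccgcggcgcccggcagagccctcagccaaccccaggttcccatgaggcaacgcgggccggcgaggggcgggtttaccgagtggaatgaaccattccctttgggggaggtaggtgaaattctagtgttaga
Mrpl33: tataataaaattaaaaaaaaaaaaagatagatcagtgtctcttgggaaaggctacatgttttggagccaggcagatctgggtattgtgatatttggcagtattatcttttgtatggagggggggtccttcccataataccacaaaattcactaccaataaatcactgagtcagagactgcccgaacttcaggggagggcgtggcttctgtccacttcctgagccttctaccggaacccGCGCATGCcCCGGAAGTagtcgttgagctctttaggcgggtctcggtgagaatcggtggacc
Mrpl45 has no match. Mrps27 has an ETS match on the opposite strand, ahead of a YY1 match past the start, and Mrps11 a YY1 match on the opposite strand. Mrpl33 holds an NRF1 and an ETS match side by side, yet it did not rise. A match describes letters and is not evidence of binding. Of 28 genes with a match to NRF1, ETS or YY1 letters 23 rose in PGC-1alpha-mTg, with a median change of 0.32, and of 40 genes with a window and no match 32 rose, with a median of 0.36.

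Some of these genes stand back to back with another gene, though how common this is among all genes was not counted. For 24 of the 68 genes with a window, that window overlapped the window of a gene on the opposite strand. The pair of Mrps11 and Mrpl46, whose windows share 141 bases, is the only one among them in which both genes belong to the ribosome, and they rose by 0.40 ± 0.07 and 0.47 ± 0.06 in PGC-1alpha-mTg. A further 20 pairs joined an Mrp gene with another tested gene. In these 17 of the 20 Mrp genes rose, with a median change of 0.29. Of their 20 partners 7 rose and 4 fell, with a median of 0.07. Of all genes tested 11.9% were called higher and 16.1% lower. Some pairs rose together, such as Mrps27 with Ptcd2 (0.84 ± 0.06 and 0.77 ± 0.05), a protein of mitochondrial RNA processing whose window shares 207 bases with it. Likewise Mrpl47 rose by 0.76 ± 0.07 and Ndufb5, a complex I subunit, by 0.58 ± 0.04. In other pairs the Mrp gene rose and its partner fell. Mrpl18 rose by 0.44 ± 0.05 and Tcp1, a subunit of the cytosolic chaperonin, fell by 0.21 ± 0.04. Mrpl40 rose by 0.20 ± 0.05 and the histone chaperone gene Hira fell by 0.27 ± 0.05. These pairs were named after their values were seen.

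In NCoR1-MKO muscle few of these genes passed the test. Of the 77 genes 2 rose (2.6%) and 0 fell, where 1.31% of all genes tested were called higher and 1.32% lower, so the count of calls was near that of all genes. Most changes were positive all the same: 64 of the 77, beside 10113 of all 19938 genes. An unadjusted limma p under 0.05, in either direction, was found for 22, beside 2356 of all genes. Genes are not replicates, so these counts were not tested. The mean over the 77 genes overlapped between the groups, at 8.63 to 8.70 on the NCoR1-MKO arrays and 8.57 to 8.65 on the CON arrays. The median change was 0.07, or 1.05-fold, beside 0.00 over all genes, with a range from -0.12 to 0.22. It was 0.07 for the Mrpl genes and 0.05 for the Mrps genes. The arrays of the groups did not overlap for 3 genes, all higher in NCoR1-MKO, where 2.21% of all genes did so as higher and 1.96% as lower. These were Mrpl3, Mrpl14 and Mrps5.

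Both calls were in the large subunit. Mrpl3, the homologue of a bacterial protein near the peptidyl transferase centre, read 10.01, 9.97, 10.07, 9.99 and 10.10 in NCoR1-MKO, against 9.91, 9.83, 9.78, 9.74 and 9.81 in CON. It rose by 0.21 ± 0.05 (adjusted p = 0.0229). Mrpl19 read 8.56, 8.44, 8.54, 8.59 and 8.70 in NCoR1-MKO, against 8.37, 8.46, 8.41, 8.13 and 8.34 in CON. Its groups overlapped at 1 array on each side, and it rose by 0.22 ± 0.06 (adjusted p = 0.0339). Neither call was firm. Mrpl3 lost it when any of CON arrays 3, 4 and 5 or NCoR1-MKO arrays 3 and 5 was left out (adjusted p = 0.0516 to 0.0658). Mrpl19 lost it without CON array 1, 4 or 5 or NCoR1-MKO array 1, 3, 4 or 5 (adjusted p = 0.0519 to 0.0904).

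The 5 genes next in order of p did not pass. Mrpl46 changed by 0.22 ± 0.06 (adjusted p = 0.0757), with 7.75, 7.81, 7.74, 7.96 and 7.81 in NCoR1-MKO, against 7.76, 7.60, 7.56, 7.50 and 7.54 in CON. Mrpl16 changed by 0.19 ± 0.06 (adjusted p = 0.0807), Mrpl55 by 0.15 ± 0.05, Mrpl50 by 0.17 ± 0.06 and Mrps5 by 0.13 ± 0.05. Mrps11, the back-to-back neighbour of Mrpl46, changed by -0.02 ± 0.07 (adjusted p = 0.972), and its 95% interval ran from -0.17 to 0.12. The largest change below 0 was that of Mrps18a, at -0.12 ± 0.04 (adjusted p = 0.216).

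**Figure D3:**
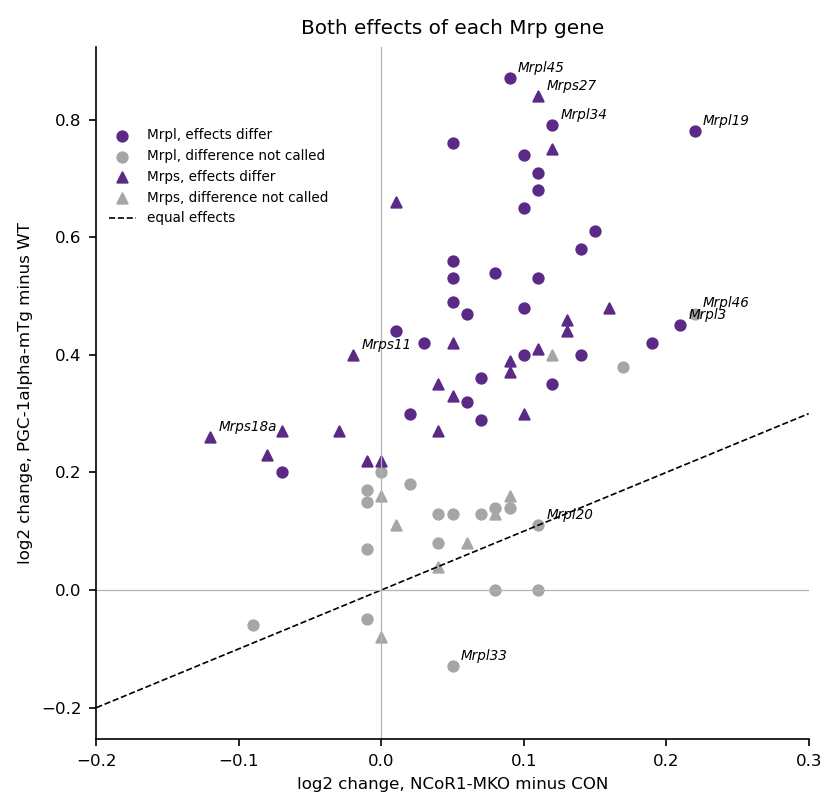
Log2 change of each Mrp gene in PGC-1alpha-mTg minus WT (vertical axis) against that in NCoR1-MKO minus CON (horizontal axis). The 50 purple points are genes whose effects differed between the models, and the dashed line marks equal effects, where Mrpl20 lies with 0.11 in both.

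The effects themselves were then compared gene by gene, as the transgenic effect minus the knockout effect. The comparisons have their own controls and share no array, though the fit takes its estimate of the spread from all 20 arrays. Each model lies in its own cohort, so a difference between the models cannot be told from one between the cohorts. The transgenic effect was larger for 50 of the 77 genes (64.9%) and smaller for 0, where the test called 6.66% of all genes higher and 8.5% lower. It was larger for 29 of 48 Mrpl and 21 of 29 Mrps genes, and the median difference was 0.28. It was larger for 42 genes without array 5 of PGC-1alpha-mTg and for 46 without arrays 2 and 3. The differences were greatest for Mrpl45 (0.78 ± 0.08), Mrps27 (0.73 ± 0.09), Mrpl47 (0.71 ± 0.10), Mrpl34 (0.67 ± 0.07) and Mrps35 (0.66 ± 0.08). For Mrpl47 the difference was 0.44 with the mean of its probe sets, below the 0.64 of Mrpl4. Even the 2 genes called in NCoR1-MKO rose more in PGC-1alpha-mTg, Mrpl19 by 0.56 ± 0.08 (adjusted p = 2.59e-05) and Mrpl3 by 0.23 ± 0.07 (adjusted p = 0.0327). Mrpl3 kept this call in only 10 of the 20 fits that leave out 1 array (adjusted p up to 0.068), so it was not firm. For Mrpl46 the difference, 0.25 ± 0.09, did not pass (adjusted p = 0.0651).

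The genes for proteins that serve the mitochondrial ribosome changed with the Mrp genes in part. Of 4 genes for ribosomal proteins under other symbols, 3 rose in PGC-1alpha-mTg. Dap3, for a GTP-binding protein of the small subunit, rose by 0.81 ± 0.04, Ptcd3 by 0.64 ± 0.06 and Chchd1 by 0.33 ± 0.06. Gadd45gip1 changed by 0.13 ± 0.06. In NCoR1-MKO, Ptcd3 rose by 0.28 ± 0.06 (adjusted p = 0.0114). Of 15 translation factors 12 rose in PGC-1alpha-mTg, where 11.9% of all genes tested were called higher. Their median change was 0.45, beside 0.02 over all genes. The strongest were Qrsl1, a subunit of an enzyme that acts on the glutamine tRNA (1.03 ± 0.06), and the elongation factor gene Gfm1 (0.91 ± 0.04). Next came Taco1, a translational activator of a cytochrome oxidase subunit (0.89 ± 0.05), and the elongation factor gene Tufm (0.80 ± 0.05). The partners of Qrsl1 in its enzyme were far behind. Gatb rose by 0.19 ± 0.06, and Gatc changed by 0.01 ± 0.04 (adjusted p = 0.894). In NCoR1-MKO 3 factors rose and 0 fell, where 1.31% of all genes tested were called higher and 1.32% lower. Guf1 rose by 0.23 ± 0.05, Tufm by 0.21 ± 0.05 and Gfm1 by 0.16 ± 0.04.

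Genes for building the ribosome were counted next. Of 21 assembly and rRNA-modifying genes 11 rose in PGC-1alpha-mTg and 0 fell, where 11.9% of all genes were called higher and 16.1% lower. Their median change was 0.14, beside 0.02 over all genes. The rRNA methyltransferase genes Mrm1, Mrm3 and Nsun4 rose by 0.71 ± 0.07, 0.56 ± 0.06 and 0.48 ± 0.05, and C1qbp by 0.50 ± 0.04. Malsu1, which keeps a maturing large subunit from joining too early, changed by 0.06 ± 0.04 (adjusted p = 0.275), and Tfb1m, which dimethylates the small-subunit rRNA, by 0.06 ± 0.06 (adjusted p = 0.502). In NCoR1-MKO only C1qbp of the 21 rose, by 0.17 ± 0.04 (adjusted p = 0.0346). Lrpprc, Oxa1l and Slirp, which stabilise mitochondrial mRNAs or insert the new proteins into the membrane, rose in PGC-1alpha-mTg by 0.62 ± 0.05, 0.37 ± 0.05 and 0.18 ± 0.06.

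The cytosolic ribosome did not follow. Of 59 cytosolic ribosomal protein genes 1 rose and 27 fell (45.8%) in PGC-1alpha-mTg, with a median change of -0.13. In NCoR1-MKO 0 rose and 1 fell, with a median of 0.01. Among all genes tested, 11.9% were called higher and 16.1% lower in PGC-1alpha-mTg, and 1.31% and 1.32% in NCoR1-MKO. Of 34 complex I subunit genes 33 rose in PGC-1alpha-mTg, with a median of 0.57, and 7 in NCoR1-MKO, with a median of 0.14. Both medians stood above those of the Mrp genes, 0.35 and 0.07. Mean array values of the complex I genes did not overlap in either model, at 10.98 to 11.05 in PGC-1alpha-mTg against 10.39 to 10.47 in WT, and at 10.67 to 10.74 in NCoR1-MKO against 10.55 to 10.60 in CON. Means of the Mrp genes, at 8.63 to 8.70 in NCoR1-MKO against 8.57 to 8.65 in CON, did overlap.

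**Figure D4:**
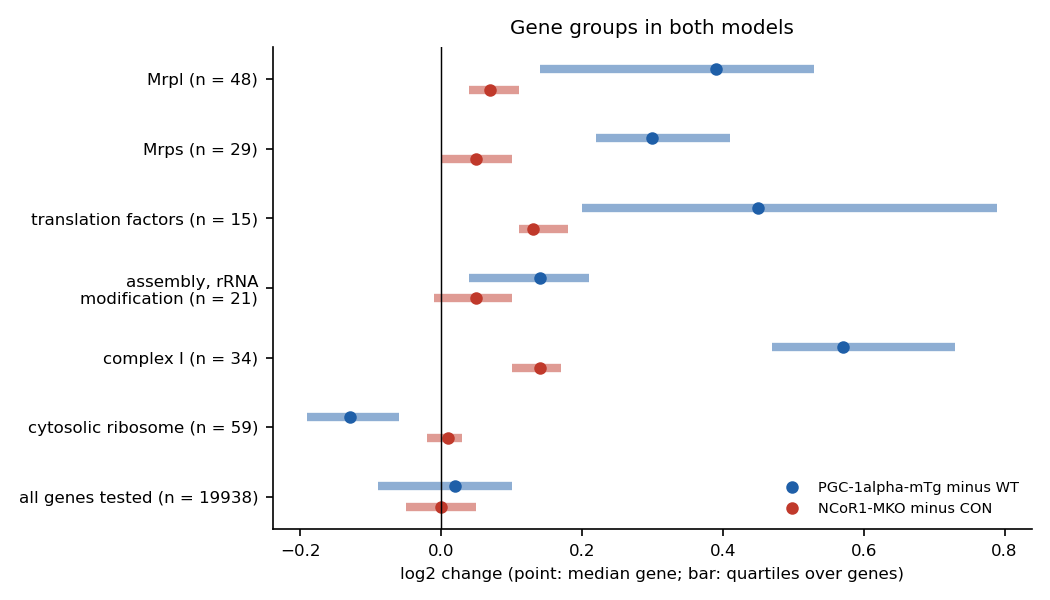
Median log2 change (points) and quartiles over genes (bars) of gene groups in PGC-1alpha-mTg minus WT (blue) and NCoR1-MKO minus CON (red). The Mrpl and Mrps medians of 0.39 and 0.30 in the transgenic comparison lie between 0.57 for complex I and -0.13 for the cytosolic ribosome.

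**Figure D5:**
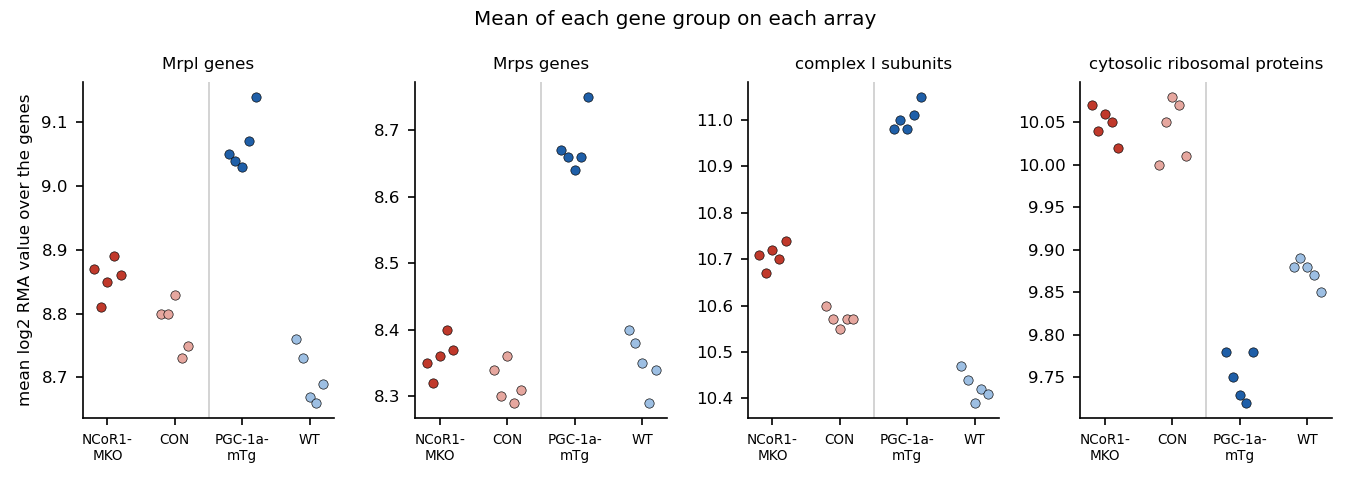
Mean log2 RMA value of the Mrpl, Mrps, complex I and cytosolic ribosomal genes on each array of NCoR1-MKO, CON, PGC-1alpha-mTg and WT. Transgenic and WT arrays are apart in every panel, and in the cytosolic panel the transgenic arrays are the lower ones.

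Of the regulators of such genes, Esrra, the estrogen-related receptor alpha, rose by 0.66 ± 0.05 in PGC-1alpha-mTg and changed by 0.01 ± 0.05 in NCoR1-MKO. Tfam, whose product packages the mitochondrial genome and takes part in its transcription, rose by 0.55 ± 0.06 in PGC-1alpha-mTg and by 0.25 ± 0.06 in NCoR1-MKO. Ppargc1b, the relative of PGC-1alpha, rose in NCoR1-MKO only among these comparisons, by 0.51 ± 0.12, and the difference between the models passed the test (adjusted p = 0.00408). Yy1 fell by 0.23 ± 0.05 in PGC-1alpha-mTg, and Nrf1, Gabpa, Gabpb1 and Myc were not called in either model. Calls among cell type markers were counted too. For comparison, 11.9% of all genes tested were called higher and 16.1% lower in PGC-1alpha-mTg, and 1.31% and 1.32% in NCoR1-MKO. Of 6 endothelial markers 5 rose in PGC-1alpha-mTg, with a log2 summed level of 11.80 to 11.95, against 11.39 to 11.61 in WT. In NCoR1-MKO 1 rose, with 11.94 to 12.17, against 11.69 to 11.93 in CON. The brightest markers weigh most in such a sum. As mean log2 values, the endothelial ranges overlapped in NCoR1-MKO, at 9.17 to 9.46 against 8.95 to 9.18 in CON. They did not overlap in PGC-1alpha-mTg, at 9.08 to 9.25 against 8.69 to 8.94 in WT. Of 6 slow-fibre markers 4 fell in PGC-1alpha-mTg, with a log2 summed level of 11.11 to 12.02, against 12.18 to 12.78 in WT. In NCoR1-MKO 2 fell, with a summed level of 10.66 to 12.03, against 11.70 to 12.80 in CON. Of 5 fibroblast markers Dcn and Pdgfra fell in PGC-1alpha-mTg, by 0.17 ± 0.04 and 0.26 ± 0.09, and all 5 changes were negative. Their log2 summed level, in which Dcn is by far the brightest marker, was 12.68 to 12.77, against 12.83 to 13.04 in WT. As mean log2 values the ranges overlapped, at 9.28 to 9.43 in PGC-1alpha-mTg and 9.39 to 9.68 in WT. Of 3 nerve and Schwann cell markers Pmp22 fell in PGC-1alpha-mTg, by 0.23 ± 0.08. Neither list had a call in NCoR1-MKO. Of 7 skeletal fibre markers Tnnc2 and Mylpf fell in PGC-1alpha-mTg, both by 0.12 ± 0.03, and Myh1 rose by 0.32 ± 0.05, and in NCoR1-MKO Mylpf rose by 0.14. For 4 of the 7 every transgenic array lay below every WT array, which held for 11.2% of all genes tested. Among these 4, Acta1 and Ckm were not called, with changes of -0.07 ± 0.03 (adjusted p = 0.109) and -0.08 ± 0.03 (adjusted p = 0.0755). Markers of macrophages, adipocytes and smooth muscle had 0 calls in either model. The part of these cell markers in the changes of the Mrp genes was not tested.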

How the data were processed

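Gene expression was measured on Affymetrix whole-transcript arrays of mouse gastrocnemius, 5 per group, grouped by the sample titles. The authors deposited log2 values, summarised with RMA in Partek, per the submitters' processing notes, which give no versions. They ranged from 2.66 to 14.47. No genome build is given in the sources used here. Distributions of values differed between the cohorts, which appear to have been normalized separately. Arrays have no read depth, and their number limits the precision. 0 pairs of arrays held identical values.

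Of 35556 probe sets, 21789 had 1 gene symbol in the platform annotation, 1621 had several and 12146 had none here. The set with the highest mean over the 20 arrays was used for each gene, with no filter on dim genes. The 77 Mrp genes had 85 such probe sets. 1 further Mrp probe set with several symbols was not used.

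A linear model with 4 group means over the 20 arrays was fitted by limma 3.58.1 (R 4.3.3; lmFit, then contrasts.fit and eBayes), two-sided, with Benjamini-Hochberg adjustment over 19938 genes and calls at an adjusted p under 0.05. The fit was tested on simulated data. Alternatives were quantile normalization across arrays, median centring, leaving out the dimmest 40% of genes, averaging the probe sets of a gene, a trended and robust eBayes, a fit to the 10 arrays of 1 comparison, array weights, a replicate block and leaving out each array. Replicate numbers in the labels are not said to mark shared animals.

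The members, the gene lists and the rule for named genes were chosen with earlier results of these data known. The rule takes, per comparison, all called members that fell, the 10 largest rises, where fewer are called all of them and the 5 uncalled with the smallest p, the 5 largest differences, the 3 brightest and 3 dimmest members and called members of the pathway lists. Some genes it takes are left unnamed. It also asked for genes correlated with the largest riser, which were not computed, since the arrays fall into clusters. Mrp genes named for their place in the ribosome, for their promoters or as uncalled were chosen after their values were seen. Promoter windows came from a RefSeq table of GRCm38.p6.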

Additional observations from a re-analysis of the deposited data

Results flagged for a closer look

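In groups of 5 arrays, 1 array stood apart from the other 4 in 7 of 128 gene and group pairs checked. Chance alone flags about 1 in 20 such groups. Mrpl19 read 8.91 on array 1 of PGC-1alpha-mTg, with the others at 8.99 to 9.02. Mrps36 read 8.35 on array 1 of PGC-1alpha-mTg, with the others at 8.67 to 8.77. Mrps18a read 9.72 on array 5 of PGC-1alpha-mTg, with the others at 9.50 to 9.55. Mrps18b read 9.47 on array 4 of WT, with the others at 9.52 to 9.54, and Mrps18c read 8.66 on array 1 of WT, with the others at 8.46 to 8.52. Mrps27 read 7.19 on array 5 of CON, with the others at 7.46 to 7.57. Mrpl22 read 6.54 on array 1 of CON, with the others at 6.76 to 6.79.

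The transgenic effect exceeded the knockout effect, by the limma test of the difference, for 50 Mrp genes. Among the named ones the log2 difference was 0.78 for Mrpl45, 0.73 for Mrps27, 0.71 for Mrpl47, 0.67 for Mrpl34, 0.66 for Mrps35, 0.64 for Mrpl4, 0.63 for Mrps36 and 0.60 for Mrpl12. It was 0.57 for Mrpl14, 0.56 for Mrpl19, 0.46 for Mrpl55, 0.44 for Mrpl18, 0.42 for Mrps11, 0.39 for Mrpl10, 0.38 for Mrps18a and 0.33 for Mrps5. The smallest were 0.28 for Mrps18b, 0.24 for Mrpl16 (adjusted p = 0.0457) and 0.23 for Mrpl3 (adjusted p = 0.0327).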

How the results depend on the processing

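The rise in PGC-1alpha-mTg changed little with the processing: 57 to 67 of the 77 genes rose under the other settings and 56 to 62 when 1 array was left out, and 55 of the 62 were called in all 20 such fits. The other 7 (Mrpl17, Mrpl21, Mrpl32, Mrpl36, Mrpl49, Mrps26 and Mrps34, all with rises of 0.27 or less) lost the call without at least 1 array of PGC-1alpha-mTg or WT, or for Mrps34 also without array 3 of NCoR1-MKO, at an adjusted p of up to 0.131. The count of fallen genes was 1, Mrpl33, with median centring and without the dimmest 40% of genes, and 0 to 1 when 1 array was left out. With quantile normalization across the 20 arrays the median change was 0.41 in place of 0.35, and the median difference of the effects over the Mrpl genes 0.31 in place of 0.26.

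The count for NCoR1-MKO was not stable. In place of 2 genes, 0 rose with median centring, 0 with a replicate block, 1 with only the 10 arrays of the comparison and 4 without the dimmest 40% of genes, and 0 to 3 when 1 array was left out. The difference of the effects was called higher for 41 to 55 genes under the other settings and for 39 to 49 when 1 array was left out, and 37 of the 50 were called in every such fit. 13 genes, among them Mrpl3 and Mrpl16, lost the call without 1 array, and each of the 20 arrays took at least 1. The count of smaller effects was 0 to 1 in these fits. The cause of these shifts was not tested. Over all genes, the calls for NCoR1-MKO were 177 higher and 255 lower with median centring, beside 261 and 264.

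Deviations of same-numbered arrays correlated weakly, at -0.13 to 0.04 in NCoR1-MKO with CON and at -0.23 to 0.20 in PGC-1alpha-mTg with WT. With 5 arrays a group this cannot exclude that some same-numbered arrays were paired. With the replicate block 57 genes rose in PGC-1alpha-mTg, and 42 differed between the models. No called change of a named Mrp gene changed sign under any setting. Among uncalled ones Mrpl22 ran from -0.08 to 0.12 and Mrpl57 from -0.02 to 0.04 in PGC-1alpha-mTg under the other settings, on both sides of 0. Arrays give no level for a probe set near background, and 5 arrays a group limit what small changes can be seen.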
